A study of Mus musculus with 44 samples.

Results

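Mefv, which encodes the inflammasome sensor pyrin, was followed together with 9 genes of the inflammasome pathway (Nlrp3, Nlrp1b, Aim2, Pycard, Casp1, Casp4, Gsdmd, Il18 and Il18bp) in RNA-seq of mouse bone marrow-derived macrophages (BMDMs), cells differentiated in vitro from marrow progenitors. The 10 genes were chosen by name, with no measured value in the rule, though earlier results of these data were known. The first of the 4 count tables lists 24940 genes, and all 10 passed the filter on low counts in each table. The 44 libraries formed 22 groups of 2 from mice that were C57Bl6 where the library name gives a strain and whose age the sample records do not give. In the first table, BMDMs of genotype NCoR flox/flox (WT) or NCoR flox/flox with LysMCre (NKO) received vehicle (Veh), KLA, PolyIC, IFNb or IL4 for 6 h or RANKL for 12 h. LysMCre expresses the Cre recombinase from the Lyz2 locus of myeloid cells and so removes the floxed Ncor1 gene, whose product is a corepressor scaffold that carries the deacetylase HDAC3. KLA (Kdo2 lipid A) stimulates the lipopolysaccharide receptor TLR4, PolyIC imitates double-stranded RNA, and RANKL is the cytokine that drives osteoclast formation. The second table held wild-type BMDMs with Veh, KLA or RGFP966_KLA, where RGFP966 inhibits HDAC3. The third held Pgc1b flox/flox BMDMs without Cre (Pgc1b_flox) or labelled as carrying LysMCre (Pgc1b_flox_Cre), each with Veh or KLA. The fourth held wild-type BMDMs with DMSO_Veh, DMSO_KLA or TBK1i_KLA, TBK1i being an inhibitor of the kinase TBK1.

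Inflammasomes are cytosolic complexes that detect infection or damage. A sensor (pyrin, NLRP3, NLRP1B or AIM2) joins the adaptor ASC, the product of Pycard, and ASC recruits caspase-1. Caspase-1 then cuts pro-interleukin-18 and pro-interleukin-1β into their active forms and cuts gasdermin D, whose fragment opens pores in the plasma membrane. Mouse caspase-11, the product of Casp4, binds lipopolysaccharide in the cytosol and also cuts gasdermin D. Il18bp encodes a secreted protein that binds interleukin-18 and blocks it. In macrophages the transcription of several of these genes is raised by Toll-like receptor signals before any complex forms, a step called priming, and RNA counts report on that step and not on assembly or cleavage.

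Counts assigned to genes ranged from 8323493 to 16783155 per library, and a count of 3 corresponded to 0.141 to 0.5 CPM (counts scaled to a common library size), a floor that covers counting error only. Ncor1 was between 49.4 and 65.0 CPM in the NKO libraries and between 133 and 215 CPM in WT. Ppargc1b, the gene floxed in the third table, was not lower with Cre (3.41 to 3.75 against 2.88 to 4.38 CPM at Veh, and 8.74 to 10.3 against 6.78 to 7.81 CPM at KLA), although counts over the whole gene need not show a deleted part. Lyz2, the site of the Cre insertion, was at 4393 to 4533 CPM in those libraries and at 8049 to 8325 CPM in their controls. They are called the libraries labelled Pgc1b_flox_Cre here. Date stamps in the library names were shared by both genotypes for Veh, PolyIC, IFNb and IL4, and by both genotypes for RANKL, whereas WT_KLA and NKO_KLA carried different stamps. NKO_KLA also came from male mice by its Y-linked counts and WT_KLA from female mice by Xist, so genotype, date and sex cannot be told apart at KLA. In WT, the responses to KLA and RANKL crossed stamps too, and RGFP966_KLA replicate 2 had another stamp than the rest of its table. The macrophage markers Adgre1, Csf1r, Cd68, Mertk, Fcgr1 and Cd14 summed to 3622 to 11530 CPM, with all 6 above the floor in each library. WT_RANKL had the lowest sums, 3622 to 3668 CPM, and NKO_RANKL had 4519 to 4818 CPM. In the same table WT_Veh had 7227 to 7727 CPM and NKO_Veh 6122 to 6314 CPM. The library names call the RANKL cells osteoclasts, but 7 osteoclast markers summed to 247 to 449 CPM there against 958 to 2163 CPM in vehicle libraries of the same table, while 11 neutrophil markers summed to 1491 to 2093 CPM with RANKL and to 9.53 to 48.6 CPM in all other groups.

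Promoter sequences are shown for 3 genes on which the comparisons turn, Mefv and Nlrp3 because they were lower in NKO under several conditions and not lower with TBK1i, and Il18bp because it had the largest fall with TBK1i. Each runs 5′ to 3′ on the gene's strand from 250 bases before to 50 bases after the transcript start given by RefSeq in build GRCm38.p6 (mm10). Mefv is on the minus strand at chr16:3718075-3718374, Nlrp3 on the plus strand at chr11:59542436-59542735 and Il18bp on the minus strand at chr7:102018183-102018482, where the RefSeq start lies upstream of the start of the transcript in the count tables. Capitals mark matches to a kappaB motif of the type recognised by NF-κB, written as 3 G, 5 bases of any kind and 2 C and read on either strand.
Mefv: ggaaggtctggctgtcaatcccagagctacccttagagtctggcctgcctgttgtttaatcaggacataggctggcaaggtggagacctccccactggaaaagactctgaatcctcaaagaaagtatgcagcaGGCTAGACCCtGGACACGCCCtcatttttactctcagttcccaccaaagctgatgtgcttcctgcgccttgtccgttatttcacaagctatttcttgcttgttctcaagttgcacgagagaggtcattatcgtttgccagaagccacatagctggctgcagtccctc
Nlrp3: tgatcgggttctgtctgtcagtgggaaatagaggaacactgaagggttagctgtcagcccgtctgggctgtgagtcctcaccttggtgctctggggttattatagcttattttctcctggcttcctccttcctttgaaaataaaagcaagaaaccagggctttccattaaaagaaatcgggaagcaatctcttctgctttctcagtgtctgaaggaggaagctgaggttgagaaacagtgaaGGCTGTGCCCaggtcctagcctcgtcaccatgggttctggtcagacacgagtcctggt
Il18bp: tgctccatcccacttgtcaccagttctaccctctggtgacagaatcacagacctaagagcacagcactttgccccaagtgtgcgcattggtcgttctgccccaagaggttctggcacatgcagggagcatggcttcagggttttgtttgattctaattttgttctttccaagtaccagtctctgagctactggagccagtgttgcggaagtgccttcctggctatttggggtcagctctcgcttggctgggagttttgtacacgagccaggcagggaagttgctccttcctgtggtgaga
Mefv held 2 such matches, which began 117 and 106 bases before the start, and Nlrp3 held 1 across its start. Casp4 held 5 matches, of which the 3 that begin at consecutive bases overlap, and Casp1 held 1. No match was found in the windows of Il18bp, Nlrp1b, Aim2, Pycard or Il18, and Gsdmd was not among the windows searched. The letters are common, occurring in 50.8% of 32851 mouse promoter windows of the same length. Letters of an interferon response element core (GAAA, 2 bases of any kind, GAAA), of AP-1 (TGANTCA) and of GAS (TTCNNNGAA) were in 3.44%, 7.81% and 8.3% of these windows, and in 0 of the 9 members searched. A match describes letters only.

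The 10 genes differed in how far their levels ranged over the 22 groups. Per length, the median group level was lowest for Mefv at 2.37 RPKM (counts per kilobase of transcript, scaled as CPM) and highest for Casp1 at 99.6 RPKM, among the 9 genes counted on the same transcript in all tables. Il18 (8.55 RPKM), Il18bp (12.3), Aim2 (12.9), Nlrp3 (14.1), Pycard (25.1), Casp4 (33.5) and Gsdmd (77.6 RPKM) lay between them. Group means of Mefv ran from 0.515 CPM in NKO_IFNb to 107 CPM in WT_KLA, a 208-fold range, and those of Nlrp3 from 8.26 CPM in NKO_IL4 to 1583 CPM in TBK1i_KLA, a 192-fold range. Casp4 spanned 175-fold, Il18bp 64.2-fold and Il18 37.0-fold. The range was narrower for Casp1 (11.9-fold), Aim2 (10.1-fold), Gsdmd (7.18-fold) and Pycard (4.05-fold). Nlrp1b was counted on different transcripts, with means from 5.86 CPM in TBK1i_KLA to 34.6 CPM in WT_IL4 over the 15 groups of the NCoR and TBK1i tables (5.91-fold) and from 2.15 CPM in KLA to 32.2 CPM in Pgc1b_flox_Veh over the other 7.

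**Figure D1:**
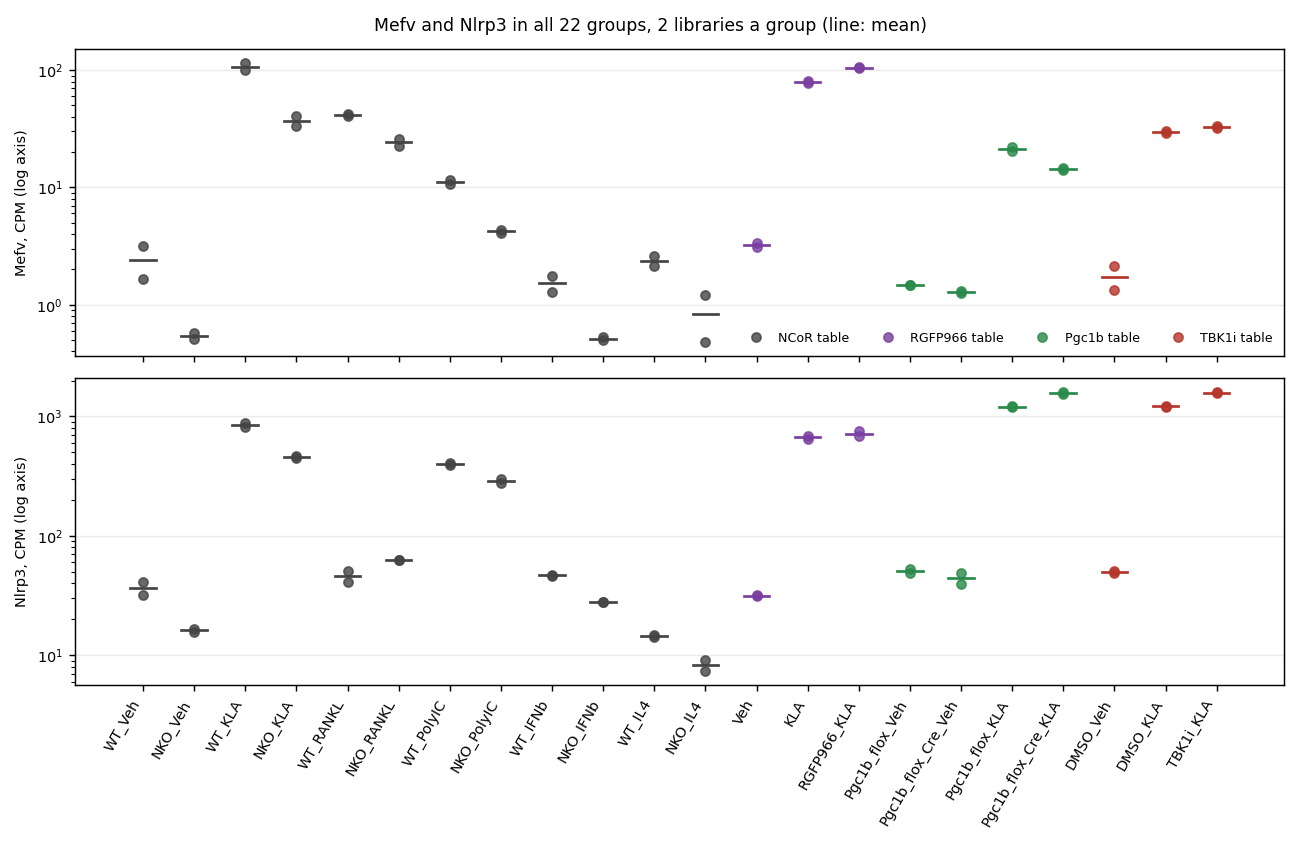
Level of Mefv (top) and Nlrp3 (bottom) in CPM on a log axis in all 22 groups, with 2 points a group for the libraries and a line for their mean, coloured by table. The highest mean of each gene was in a group with KLA, and within each NKO and WT pair Mefv was lower in NKO, whereas Nlrp3 was lower in NKO except with RANKL.

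The first comparison asked how loss of NCoR changed these genes under each condition. Mefv was lower in NKO under all 6 conditions and Nlrp3 under 4 of 6, KLA included, where genotype, date and sex coincide, while Nlrp1b, Aim2, Pycard and Gsdmd passed the test in none. Over 60 tests (10 genes in 6 conditions, with 2 libraries a group) 17 were called, 16 lower and 1 higher. To be called, a gene needed a fold above 1.5 together with a p below 0.05 by edgeR's quasi-likelihood test, adjusted over all genes by the method of Benjamini and Hochberg. Of 13407 genes tested, 6.21% were called at Veh (3.8% lower), 40% at KLA (19% lower), 13.2% at RANKL (6.21% higher and 6.99% lower), 5.93% at PolyIC (2.92% lower), 3.8% at IFNb (1.94% lower) and 4.24% at IL4 (2.33% lower), and the 10 genes gave 4, 4, 2, 2, 2 and 3 calls in that order. In bulk RNA, fewer cells of a type and less RNA per cell cannot be told apart. The 7 osteoclast markers summed to 2129 to 2163 CPM in NKO_Veh and 958 to 1120 CPM in WT_Veh. With PolyIC they summed to 2453 to 2481 CPM in NKO and 547 to 557 CPM in WT, with IFNb to 1771 to 1772 against 820 to 873 CPM, with IL4 to 2534 to 2604 against 1514 to 1538 CPM, with RANKL to 323 to 449 against 247 to 255 CPM and with KLA to 415 to 419 against 290 to 296 CPM. In each library 5 or 6 of the 7 markers were above the floor. The part of these markers in the differences was not tested.

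Mefv (NM_001161790, chr16:3707215-3718124), whose product pyrin senses inactivated RhoA and whose human counterpart is mutated in familial Mediterranean fever, had 24 and 46 counts in WT_Veh and 8 and 9 in NKO_Veh. These were 1.65 and 3.15 CPM in WT_Veh and 0.574 and 0.513 CPM in NKO_Veh. The groups did not overlap, and the log2 fold change was -2.13 ± 0.38 (SE), with an adjusted p = 1.07e-05. The WT_Veh libraries differed from each other, and without replicate 2 the change was -1.59 (adjusted p = 0.0102). With PolyIC, Mefv was 10.6 and 11.7 CPM in WT and 4.12 and 4.35 CPM in NKO (-1.39 ± 0.21, adjusted p = 5.7e-07). RANKL gave 40.6 and 42.3 CPM in WT and 25.7 and 22.8 CPM in NKO (-0.77 ± 0.12, adjusted p = 1.37e-07). In both conditions the lower WT library stood above the higher NKO library. With KLA the 2 WT libraries were at 100.1 and 114 CPM and the 2 NKO libraries at 33.3 and 40.5 CPM (-1.54 ± 0.11, adjusted p = 2.2e-19). Genotype cannot be told apart from date and sex in that comparison, and against KLA controls of other tables in a joint fit Mefv in NKO_KLA was lower in the RGFP966 table (-1.42), higher in the Pgc1b table (0.74) and not called in the TBK1i table (0.24). At IFNb and IL4 the gene had few counts. IFNb libraries held 20 and 24 counts in WT against 7 and 7 in NKO (-1.54 ± 0.44, adjusted p = 0.0101), and the call was lost without either NKO_IFNb library or without WT_IFNb replicate 2 (adjusted p from 0.0641 to 0.119). IL4 libraries held 33 and 28 counts against 7 and 17 (-1.49 ± 0.36, adjusted p = 0.00148). Without NKO_IL4 replicate 1 that change was -0.97 and no longer called (adjusted p = 0.111), and without replicate 2 it was -2.28.

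Nlrp3 (NM_145827, chr11:59542686-59566953), a sensor of potassium efflux and membrane damage, was 31.6 and 41.3 CPM in WT_Veh and 15.6 and 16.7 CPM in NKO_Veh (-1.17 ± 0.11, adjusted p = 1.06e-10). With KLA it was 823 and 879 CPM in WT and 466 and 450.4 CPM in NKO (-0.89 ± 0.07, adjusted p = 5.28e-14). IFNb gave 47.3 and 46.0 CPM against 27.6 and 27.7 CPM (-0.75 ± 0.10, adjusted p = 2.68e-07). Each NKO library lay below both WT libraries in these conditions and also with IL4, where 14.2 and 14.8 CPM stood against 7.39 and 9.13 CPM (-0.81 ± 0.15, adjusted p = 0.000106). With PolyIC the difference of -0.47 ± 0.07 had an adjusted p = 2.16e-06 but a fold of 1.39, under the 1.5 required. With RANKL the order was the other way, at 40.9 and 50.6 CPM in WT and 62.4 and 62.9 CPM in NKO, a 1.37-fold difference that was also under the required fold (0.45 ± 0.09, adjusted p = 0.000104) but passed it without WT_RANKL replicate 2 (0.61).

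The sensors of bacterial toxin and DNA showed smaller differences. Nlrp1b (chromosome 11), whose product is cleaved by anthrax lethal factor, ranged from 14.5 to 25.5 CPM over the WT and NKO libraries with Veh, RANKL and IFNb and reached 35.6 CPM in WT_IL4, with log2 fold changes between genotypes from -0.32 to 0.25. Aim2 (NM_001013779, chr1:173420604-173466036), the sensor of cytosolic DNA, changed by -0.34 with KLA and by 0.41 with IFNb on the log2 scale, its extremes, and was not called. Its adjusted p at IFNb was 0.000152, with 31.2 and 29.1 CPM in WT and 40.3 and 39.7 CPM in NKO, at a fold of 1.33. Pycard (NM_023258, chr7:127991373-127993867) went from -0.29 at Veh to 0.34 at KLA, where 126 and 116 CPM in WT stood against 148 and 158 CPM in NKO.

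Among the caspases and gasdermin D, calls were few. Casp4 (NM_007609, chr9:5308849-5336791) was 27.8 and 43.6 CPM in WT_Veh and 16.2 and 16.7 CPM in NKO_Veh (-1.12 ± 0.15, adjusted p = 5.84e-05). The WT libraries stood apart from each other but both lay above NKO. With a fit of the compared groups only, the adjusted p of Casp4 was 0.0549 and the call was lost. Casp1 (NM_009807, chr9:5298517-5307281) was 763 and 752 CPM in WT_KLA and 378 and 405 CPM in NKO_KLA (-0.95 ± 0.05, adjusted p = 4.11e-23), a difference that also crosses date and sex. At Veh its 94.4 and 110.5 CPM in WT were above 72.9 and 72.4 CPM in NKO, at a fold of 1.41 (adjusted p = 4.36e-09), which passed the required fold without WT_Veh replicate 1 (-0.60). Gsdmd (NM_026960, chr15:75862339-75867404) came nearest to a call with RANKL, where 82.2 and 80.8 CPM in WT stood above 57.5 and 54.8 CPM in NKO (-0.54 ± 0.06, fold 1.45, adjusted p = 5e-10). At KLA its difference was -0.04 ± 0.05.

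The cytokine Il18 and its secreted inhibitor Il18bp were called in different conditions. Il18 (NM_008360, chr9:50554700-50581841) was 143 and 147 CPM in WT_KLA and 87.6 and 88.5 CPM in NKO_KLA (-0.72 ± 0.08, adjusted p = 2.49e-11), and it passed in no other condition. The comparison at KLA crosses date and sex, and with RANKL Il18 was called higher in NKO without WT_RANKL replicate 1 (0.71). Il18bp (NM_010531, chr7:102015077-102018155) fell in NKO at Veh, PolyIC and IL4 and rose at RANKL. It was 193 and 198 CPM in WT_PolyIC and 125 and 130.1 CPM in NKO_PolyIC (-0.62 ± 0.07, adjusted p = 3.06e-10), and 12.0 and 15.8 CPM in WT_IL4 against 7.87 and 6.73 CPM in NKO_IL4 (-0.93 ± 0.14, adjusted p = 1.08e-06). With RANKL 11.5 and 13.0 CPM in WT stood below 19.3 and 20.8 CPM in NKO (0.71 ± 0.12, adjusted p = 4.02e-06). At Veh 11.8 and 16.7 CPM stood above 8.26 and 7.93 CPM (-0.82 ± 0.13, adjusted p = 2.17e-06), a call that was lost without WT_Veh replicate 2 (-0.55). Each of these pairs of groups was separated without overlap, where the share of all genes without overlap was not computed.

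**Figure D2:**
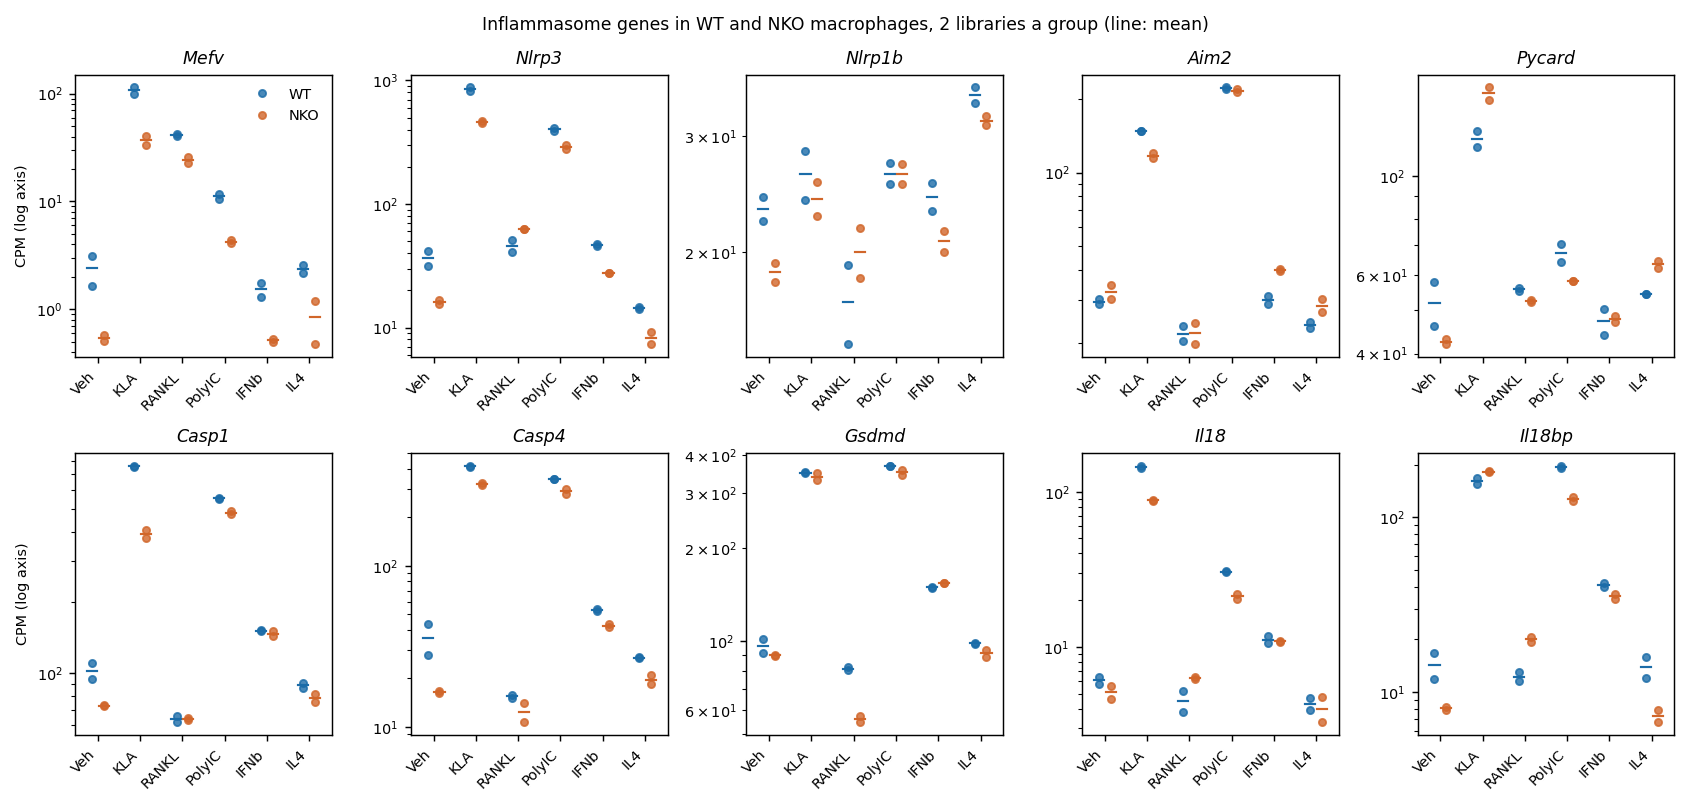
Level of the 10 genes in CPM on log axes, 1 panel a gene, in WT (blue) and NKO (orange) BMDMs under 6 conditions, with 2 points a group for the libraries and a line for the mean. KLA and PolyIC raised most genes in both genotypes, and the separation between WT and NKO was widest for Mefv.

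The response to each ligand was compared with vehicle within each genotype. In WT, KLA raised 9 of 10 genes (57.8% of all genes were called, 25.4% higher), PolyIC 8 (47.2%, 22.2% higher), IFNb 3 (6.47%, 4.09% higher), RANKL 1 (43.8%, 24.1% higher and 19.8% lower) and IL4 none, while 2 genes fell with RANKL and 1 with IL4 (13.1% called, 6.46% lower). Mefv rose 44.5-fold with KLA, from 1.65 and 3.15 CPM to 100.1 and 114 CPM (5.47 ± 0.15, adjusted p = 2.99e-39). Nlrp3 rose 23.3-fold (4.54 ± 0.08) and Il18 23.7-fold (4.57 ± 0.11). The other genes called with KLA were Casp4 (3.53), Il18bp (3.50), Casp1 (2.89), Aim2 (2.32), Gsdmd (1.86) and Pycard (1.22, all log2 fold changes), and Nlrp1b was not called (0.18 ± 0.12). The stroma markers Col1a1 and Col3a1 summed to 48.9 to 50.7 CPM in WT_Veh and 0 to 0.164 CPM in WT_KLA, and their part was not tested.

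PolyIC and KLA ordered the genes differently. With PolyIC, Il18bp had the largest log2 fold change (3.77 ± 0.09), followed by Nlrp3 (3.46), Casp4 (3.28), Aim2 (2.90), Casp1 (2.43), Il18 (2.32), Mefv (2.21) and Gsdmd (1.93). Pycard did not reach the fold threshold (0.37 ± 0.08, adjusted p = 3.99e-05). IFNb raised Il18bp from 11.8 and 16.7 to 42.3 and 39.7 CPM (1.52 ± 0.10, adjusted p = 9.01e-19), Il18 by 0.87 ± 0.15 and Gsdmd by 0.63 ± 0.06 on the log2 scale. The call of Gsdmd was lost without WT_Veh replicate 1 (0.56). Without WT_Veh replicate 2 IFNb raised 5 genes in WT, Casp4 (0.94) and Casp1 (0.68) being added, and Casp4 was also called without WT_IFNb replicate 2 (0.59). With IL4, Nlrp1b was 22.3 and 24.2 CPM with vehicle and 33.7 and 35.6 CPM with the ligand, just under the fold threshold (0.57, fold 1.49, adjusted p = 4.86e-06) and past it without WT_Veh replicate 2 (0.64) or WT_IL4 replicate 1 (0.61). IL4 lowered Nlrp3 to 14.2 and 14.8 CPM (-1.33 ± 0.11, adjusted p = 4.78e-12). Mefv was not called with IFNb (-0.66 ± 0.30) or IL4 (-0.02 ± 0.28), where its libraries overlapped those of vehicle. Without WT_Veh replicate 1, the change with IFNb was called at -1.05.

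With RANKL, Mefv was the 1 gene called higher in WT. It rose from 1.65 and 3.15 CPM in WT_Veh to 40.6 and 42.3 CPM in WT_RANKL (4.10 ± 0.16, adjusted p = 4.78e-31), whereas Casp4 fell to 15.04 and 15.9 CPM (-1.21 ± 0.16, adjusted p = 4.47e-06) and Casp1 to 65.6 and 61.9 CPM (-0.68 ± 0.06, lost without WT_Veh replicate 2 at -0.57). Mefv RNA is known from neutrophils as well as macrophages. The 11 neutrophil markers, among them Ly6g, Elane, Mpo, Ngp, Camp and Ltf, were all above the floor in the RANKL libraries and summed to 1491 to 1616 CPM in WT_RANKL and 2068 to 2093 CPM in NKO_RANKL, against 11.3 to 21.6 CPM in the Veh libraries. Stroma markers summed to 128 to 215 CPM in the RANKL libraries. What share of the Mefv counts came with these markers was not tested, and date, culture time and ligand cannot be told apart here.

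In NKO the responses to KLA and RANKL crossed date stamps as in WT, and NKO_KLA came from male and NKO_Veh from female mice by their Xist and Y-linked counts, so ligand, date and sex cannot be told apart at KLA. Here 27 of 50 tests were called higher and 2 lower, against 21 and 3 in WT, counts that do not test a difference between genotypes. KLA raised 9 genes in NKO (61.2% of all genes called, 28.4% higher), and PolyIC raised 8 (43.1%, 21% higher). IFNb raised 6 (8.38%, 5.65% higher), namely Nlrp3, Casp1, Casp4, Gsdmd, Il18 and Il18bp. In WT with IFNb, Nlrp3 (0.36), Casp1 (0.56) and Casp4 (0.58) missed only the fold (adjusted p from 1.29e-11 to 0.00356, edgeR's quasi-likelihood test). For these genes the interaction of genotype and IFNb was not called. RANKL raised Mefv, Nlrp3 and Il18bp and lowered Gsdmd (45.3%, 25.3% higher and 20% lower). IL4 raised Nlrp1b (0.77 ± 0.10) and lowered Nlrp3 (-0.98 ± 0.14), where 12.1% of all genes were called (6.71% higher and 5.42% lower). For Nlrp1b the interaction of genotype and IL4 was not called (0.19 ± 0.15, adjusted p = 0.55). Mefv went from 0.574 and 0.513 CPM to 33.3 and 40.5 CPM with KLA, a log2 fold change of 6.06 ± 0.22.

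Whether the response differed between genotypes was tested with an interaction term, the change from WT to NKO with ligand minus that with vehicle. Of 50 terms 11 were called, and all 11 were positive. They were Pycard (0.63), Casp4 (0.76) and Il18bp (1.00) at KLA (36.9% of all genes called, 19.9% positive), Mefv (1.36), Nlrp3 (1.62), Casp4 (0.81), Il18 (0.73) and Il18bp (1.53) at RANKL (14.2%, 7.26% positive), Nlrp3 (0.70) and Casp4 (0.86) at PolyIC (3.24%, 2.13% positive) and Il18bp (0.61) at IFNb (0.604%, 0.552% positive). With IL4 edgeR called 0 of 10 (0.604% of all genes), where 3 had an unadjusted p under 0.05 and DESeq2 called 1. That share of all genes is of edgeR's calls only, so the other counts cannot be set against it. The terms at KLA cross date stamps and sex, and those at RANKL cross date stamps and culture time (12 h against 6 h at Veh). The 11 neutrophil markers summed to 1491 to 1616 CPM in WT_RANKL and 2068 to 2093 CPM in NKO_RANKL. At Veh these markers summed to 11.3 to 21.6 CPM, and their part in the RANKL terms was not tested. All 5 ligands share the Veh libraries, and the count rested on them. Without WT_Veh replicate 2 only 4 terms were called, those of Il18bp at KLA and of Nlrp3, Il18 and Il18bp at RANKL, and without WT_Veh replicate 1 the count was 17. Il18 at RANKL was itself lost without WT_Veh replicate 1, WT_RANKL replicate 2 or replicate 1 of NKO_Veh or NKO_RANKL (adjusted p from 0.0724 to 0.147). Mefv at RANKL was 0.82 and not called without WT_Veh replicate 2 (adjusted p = 0.214), nor without NKO_Veh replicate 2 (1.27, adjusted p = 0.0777). Pycard at KLA fell under the fold threshold without NKO_KLA replicate 2 (0.58) or WT_KLA replicate 2 (0.57). Casp4 at RANKL was lost without any library other than WT_Veh replicate 1 and NKO_RANKL replicate 2, and Il18bp at IFNb without any other than WT_Veh replicate 1 and NKO_IFNb replicate 1. In a fit of the compared groups only, the 3 terms of Casp4 had adjusted p from 0.106 to 0.209.

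The other 3 tables held control BMDMs in which KLA and vehicle shared 1 date stamp per table. Of 30 tests 28 were called, 26 higher and 2 lower, where 60%, 48.5% and 58.9% of all genes were called in the RGFP966, Pgc1b and TBK1i tables (27.9%, 22.8% and 29.6% higher, and 32.2% and 25.7% lower in the RGFP966 and Pgc1b tables). Mefv rose in each, from 3.09 and 3.34 CPM to 80.3 and 77.1 CPM (4.61 ± 0.11), from 1.46 and 1.48 CPM to 20.3 and 22.2 CPM (3.85 ± 0.26) and from 1.33 and 2.13 CPM to 29.3 and 30.1 CPM (4.10 ± 0.17). Nlrp3 gave log2 fold changes of 4.41, 4.57 and 4.59, Il18 of 4.34, 4.23 and 4.73, and Il18bp of 3.53, 4.06 and 3.51 in the 3 tables. In the NCoR table the change of Mefv was 5.47 in WT, above the value in each of the 3 tables, and whether the responses differed between tables was not tested. The level of Mefv with KLA was 107 CPM in WT_KLA and 21.3 CPM in Pgc1b_flox_KLA. Casp4 with vehicle was 2.84 and 2.21 CPM in Pgc1b_flox_Veh and 1.90 and 2.81 CPM in the libraries labelled Pgc1b_flox_Cre_Veh, while vehicle means of the other tables lay between 16.4 and 35.7 CPM.

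Pycard and Nlrp1b gave unlike values in the control sets, a difference that was not tested. Pycard rose with KLA in WT (1.22), in the RGFP966 table (0.94 ± 0.07) and in the TBK1i table (0.89 ± 0.08), but was 47.7 and 55.1 CPM with vehicle and 45.8 and 40.5 CPM with KLA in the Pgc1b table (-0.25 ± 0.12, adjusted p = 0.0547). Nlrp1b fell from 28.2 and 28.7 to 2.49 and 1.81 CPM in the RGFP966 table (-3.74 ± 0.18, adjusted p = 2.83e-32) and from 33.8 and 30.6 to 2.08 and 2.64 CPM in the Pgc1b table (-3.78 ± 0.22, adjusted p = 3.3e-17), but was not called in the NCoR (0.18) or TBK1i table (-0.52 ± 0.12), in the latter reaching the fold threshold without DMSO_Veh replicate 2 (-0.60). The tables count different transcripts of this gene. The NCoR and TBK1i tables give NM_001162414 (chr11:71153102-71201456) and the others NM_001040696 (chr11:71153102-71230733). In the mouse annotation the corresponding transcripts have 4131 and 4134 exon bases, of which 2122 are shared (51.4% and 51.3%), so values of Nlrp1b are comparable only between tables of the same transcript.

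The HDAC3 inhibitor RGFP966 lowered 1 of the 10 genes during KLA, where 25.4% of all genes were called, 9.54% lower. Il18bp was 128 and 112 CPM with KLA and 53.4 and 63.1 CPM with RGFP966_KLA, without overlap (-1.04 ± 0.08, adjusted p = 2.1e-20). Mefv was 80.3 and 77.1 CPM with KLA and 103 and 105 CPM with the inhibitor, a higher level at a fold of 1.33 (0.41 ± 0.07, adjusted p = 1.41e-06). Nlrp3 overlapped between the groups, at 653 and 688 against 754 and 681 CPM (0.10 ± 0.06, adjusted p = 0.144). Gsdmd (-0.47), Casp4 (-0.33) and Il18 (-0.23) had adjusted p from 1.74e-10 to 0.0041 and folds of 1.17 to 1.38. The 11 neutrophil markers summed to 12.9 to 18.2 CPM with KLA and 46.7 to 48.6 CPM with RGFP966_KLA. At most 6 and 5 of them were above the floor in that order, and their part was not tested.

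TBK1 inhibition lowered 8 of the 10 genes during KLA, with 33.3% of all genes called and 18.3% lower. The 2 genes that did not fall were Mefv and Nlrp3. Il18bp went from 83.2 and 86.0 CPM to 5.31 and 5.41 CPM, below the 7.78 and 7.08 CPM of DMSO_Veh (-3.98 ± 0.13). Aim2 went from 154 and 163 to 22.2 and 22.4 CPM (-2.83 ± 0.08) and Il18 from 146 and 151 to 21.5 and 22.6 CPM (-2.76 ± 0.08). The inhibited libraries lay far below the KLA libraries for these 3 genes, and the Aim2 level was also under the 31.8 and 29.7 CPM of DMSO_Veh. Nlrp1b (-1.64), Casp1 (-1.51), Gsdmd (-0.90), Casp4 (-0.85) and Pycard (-0.68) fell less. The call of Pycard was lost without DMSO_KLA replicate 1 (-0.57). Mefv was 29.3 and 30.1 CPM with DMSO_KLA and 32.2 and 33.3 CPM with TBK1i_KLA (0.14 ± 0.11, adjusted p = 0.296). Nlrp3 was 1205 and 1222 CPM against 1562 and 1603 CPM, a higher level at a fold of 1.30 (0.38 ± 0.04, adjusted p = 7.12e-26). Of 3 dendritic cell markers 1 was above the floor, and they summed to 0.116 to 0.221 CPM with DMSO_KLA and 4.11 to 4.62 CPM with TBK1i_KLA, whose part was not tested.

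The libraries labelled Pgc1b_flox_Cre differed from Pgc1b_flox mainly with KLA. There 5 of the 10 genes were lower and 1 higher, where 26.1% of all genes were called (12.9% lower and 13.2% higher). Il18bp was 54.6 and 48.0 CPM in Pgc1b_flox_KLA and 11.6 and 10.5 CPM in the libraries labelled Cre (-2.21 ± 0.17, adjusted p = 2.27e-13). Il18 was 99.6 and 108 CPM against 21.3 and 27.6 CPM (-2.09 ± 0.16, adjusted p = 7.97e-11), and Casp1 454 and 504 CPM against 178 and 215 CPM (-1.28 ± 0.08, adjusted p = 3.09e-15). None of these 3 genes overlapped between groups, where the share of all genes without overlap was not computed. Gsdmd fell by 0.96 and Aim2 by 0.73 on the log2 scale, the latter call being lost without Pgc1b_flox_KLA replicate 2 (-0.56). Nlrp1b rose from 2.08 and 2.64 to 4.29 and 3.92 CPM (0.81 ± 0.29, adjusted p = 0.0237), a call that was lost without replicate 1 of either group. Mefv was 20.3 and 22.2 CPM against 14.6 and 14.1 CPM, lower at a fold of 1.48 (-0.57 ± 0.20, adjusted p = 0.0212), and Nlrp3 was 1216 and 1203 CPM against 1589.9 and 1536 CPM, higher at a fold of 1.29. Dendritic cell markers summed to 0.251 to 1.04 CPM in Pgc1b_flox_KLA and 4.32 to 6.44 CPM in the libraries labelled Cre, 1 of 3 being above the floor, and their part was not tested.

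With vehicle, Nlrp1b was lower in the libraries labelled Pgc1b_flox_Cre (33.8 and 30.6 against 19.2 and 21.7 CPM, -0.66 ± 0.15, adjusted p = 0.0242), in a comparison where 0.303% of all genes were called, 0.139% lower. The call was lost when any of the 4 libraries was left out, and DESeq2 gave Nlrp1b no adjusted p. Il18bp at 2.60 and 3.49 against 5.95 and 5.15 CPM was not called (0.85 ± 0.23, adjusted p = 0.0771). The interaction of Cre and KLA was called for 5 genes (22.8% of all genes, 11.6% positive and 11.2% negative). It was negative for Il18bp (-3.07 ± 0.28), Il18 (-1.62 ± 0.31), Casp1 (-1.09 ± 0.12) and Gsdmd (-0.89 ± 0.11) and positive for Nlrp1b (1.47 ± 0.33).

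**Figure D3:**
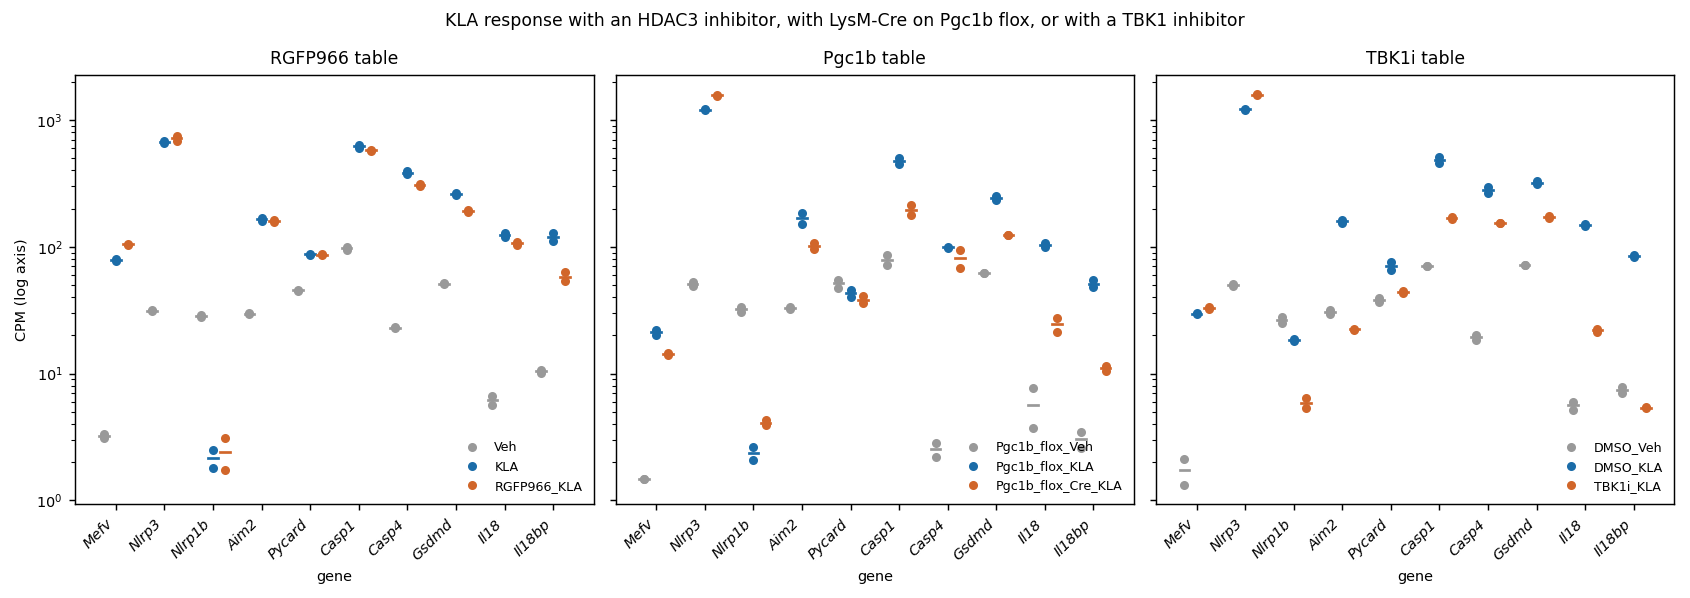
Level of the 10 genes in CPM on a log axis in the RGFP966, Pgc1b and TBK1i tables, with vehicle in grey, KLA in blue and KLA with inhibitor or with the label Cre in orange (2 points a group for the libraries, a line for the mean). Il18bp, Il18 and Aim2 were much lower with TBK1i, and Nlrp3 and Mefv were not.

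Since genotype, date and sex coincide in NKO_KLA against WT_KLA, NKO_KLA was also set against the KLA controls of the other 3 tables in a joint fit of 10864 genes with the same transcript everywhere, which leaves out Nlrp1b. These comparisons share the NKO_KLA libraries and differ in date and table, and Pgc1b_flox_KLA was male like NKO_KLA. Of all genes 46.9%, 37.3% and 41.7% were called against KLA, Pgc1b_flox_KLA and DMSO_KLA, and of the 9 members 5, 5 and 4. Against KLA 23.9% of all genes were lower, against Pgc1b_flox_KLA 16.2% were higher and 21.1% lower, and against DMSO_KLA 19.2% were higher and 22.5% lower. The calls were 8 lower and 6 higher. Nlrp3 was lower in NKO_KLA against each, with log2 fold changes of -0.87 ± 0.05, -1.45 ± 0.05 and -1.48 ± 0.05. Mefv was not, being lower against KLA (-1.42 ± 0.09), higher against Pgc1b_flox_KLA (0.74 ± 0.11) and not called against DMSO_KLA (0.24 ± 0.11). Casp1 was lower against KLA (-0.99 ± 0.06) and did not reach the fold threshold against the others (-0.34 and -0.37). Il18 was lower against KLA (-0.82) and DMSO_KLA (-0.83) and not called against Pgc1b_flox_KLA (-0.29), and Aim2 was lower against KLA (-0.81). Pycard was higher against Pgc1b_flox_KLA (1.77) and DMSO_KLA (1.05), as was Il18bp (1.78 and 1.04), and Casp4 was higher against Pgc1b_flox_KLA (1.65). Over the 5 conditions in which both genotypes shared a date stamp, a count chosen after seeing the data, 13 of 50 NKO tests were called. Of all genes 6.21% were called at Veh, 13.2% at RANKL, 5.93% at PolyIC, 3.8% at IFNb and 4.24% at IL4 in these conditions.

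**Figure D4:**
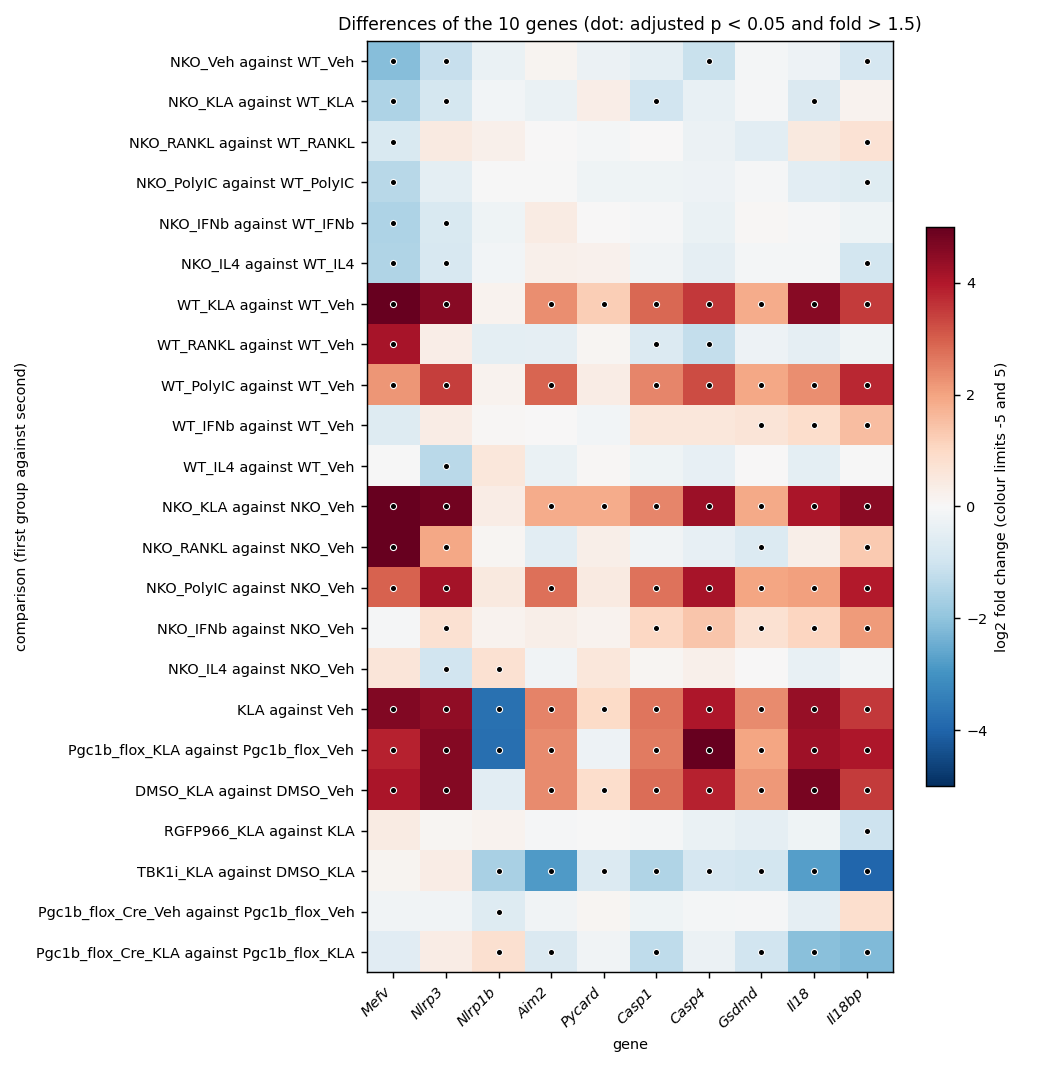
Log2 fold change of the 10 genes (columns) in 23 comparisons of 2 groups (vertical axis), coloured from blue for lower to red for higher with colour limits at a change of 5 in either direction, and with a dot for an adjusted p below 0.05 and a fold above 1.5. The first column, Mefv, has a dot and a blue colour in all 6 NKO comparisons, and no dot with RGFP966, with TBK1i or with the label Cre.

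Other genes of the pathway were taken as a list of 39 (other sensors, regulators of NLRP3 and pyrin, executioners, GBP genes, and interleukin-1 family cytokines and receptors), of which 37 were tested in the NCoR table. With KLA in WT 17 of the 37 rose and 6 fell, where 25.4% of all genes rose and 32.3% fell, and with PolyIC 17 and 4 (22.2% and 25%). In NKO against WT 7 of 37 fell and 0 rose at Veh (3.8% of all genes fell), 12 were lower and 6 higher at KLA (19% and 21%), 4 rose at RANKL (6.21%), 1 rose and 2 fell at PolyIC (3.01% and 2.92%), 1 fell at IFNb (1.94%), and 1 rose and 2 fell at IL4 (1.9% and 2.33%). The 7 at Veh were Gbp2, Gbp3, Gbp5 and Zbp1, which are interferon-induced, the AIM2-like genes Ifi204 and Mndal, and Il1b, the partner cytokine of Il18 in caspase-1 processing. Libraries were left out for the 10 members only, so how far these 7 calls rest on WT_Veh replicate 2 was not tested. Il1b was 0.700 CPM in NKO_Veh against 4.59 CPM in WT_Veh on average (-2.64 ± 0.61, adjusted p = 0.00741) and 972 against 6018 CPM at KLA (-2.63 ± 0.14). The level in NKO_Veh was low, where a count of 3 corresponds to 0.215 and 0.171 CPM. At KLA, for Il1b and for the list alike, genotype, date and sex cannot be told apart. TBK1i lowered 22 and raised 4 of 34 tested (18.3% and 15% of all genes), with Gbp2 at -2.61, Gbp3 at -2.86 and Zbp1 at -6.64, whereas Il1b (8880 against 11110 CPM) did not reach the fold threshold at -0.32. RGFP966 raised 7 and lowered 1 of 34 (15.8% and 9.54% of all genes), among the former Nlrc4, which assembles with NAIP proteins that detect flagellin, at 1.23 ± 0.12. In the libraries labelled Pgc1b_flox_Cre_KLA 14 of 33 were lower and 0 higher (12.9% and 13.2% of all genes).

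Genes with the pattern most like that of a member were taken by Pearson correlation of log2 CPM over the 12 group means of the NCoR table, among 9795 genes averaging at least 5 CPM. This is a description over groups that share libraries and dates. Mefv was most like Atp5f1 (r = 0.979), Btf3 (0.974) and Riok1 (0.961), and Nlrp3 most like Tnf (0.992). Of the members only Casp4 had another member among its 3 nearest genes, Casp1 (0.991). Il18bp was nearest to Psme1 (0.994), Aim2 to Map4 (0.995), Gsdmd to Tap2 (0.992), Il18 to Pfkfb3 (0.993), Casp1 to Tab2 (0.994), Pycard to Batf (0.974) and Nlrp1b to Ikzf2 (0.944).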

How the data were processed

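Poly-A RNA of BMDMs was sequenced from strand-marked (dUTP) libraries. The authors aligned reads with STAR to mm10 and counted them over exons with HOMER, and the values deposited by the authors are raw counts per gene for each library, with transcript coordinates and length beside them. Tool versions are not given in the sources used here. HOMER keeps 1 transcript a gene, which for Nlrp1b differs between tables.

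Counts were analysed here in R 4.3.3 with edgeR 4.0.16. Each table was filtered by filterByExpr (13407, 12196, 12205 and 12332 genes kept in the NCoR, RGFP966, Pgc1b and TBK1i tables), scaled by TMM and fitted over all its groups with the robust quasi-likelihood test. P-values were adjusted by Benjamini-Hochberg over all genes tested, and calls needed an adjusted p below 0.05 together with a fold above 1.5. The SE given after ± was derived from that test, as the absolute log2 fold change over the square root of its F statistic. CPM and RPKM use TMM library sizes. The script was tested on simulated data. DESeq2 1.42.0, other filters and scalings, a replicate block, fits of the compared groups only and leaving out each library were the alternatives, and the counts by date stamp and without RANKL were added after seeing the data. The 10 genes and all gene lists were chosen with earlier results of these data known. By the naming rule the 10 members were always named, the other pathway genes were given as counts, and the 3 genes nearest each member by pattern were eligible. Which pathway genes are given with values was chosen after their values were seen. Promoters came from RefSeq tables of GRCm38.p6, which list 9 of the 10 genes.

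Replicates are not stated to be separate cultures or animals, so p-values measure the spread between these samples, which may be technical. An exact permutation test of 2 against 2 libraries cannot go below a 2-sided p of 0.333 and was not used. The share of all genes whose groups did not overlap was not computed, so statements of no overlap describe single genes only. Same-numbered libraries did not deviate together (correlations from -0.07 to 0.064), so numbers were not used as pairs. Figures were drawn with matplotlib 3.10.9.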

Additional observations from a re-analysis of the deposited data

Results flagged for a closer look

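The response to a ligand differed between genotypes by the interaction test (edgeR's quasi-likelihood test, log2 scale, NKO minus WT) for Pycard (0.63), Casp4 (0.76) and Il18bp (1.00) with KLA, for Mefv (1.36), Nlrp3 (1.62), Casp4 (0.81), Il18 (0.73) and Il18bp (1.53) with RANKL, for Nlrp3 (0.70) and Casp4 (0.86) with PolyIC and for Il18bp (0.61) with IFNb. These terms share the WT_Veh and NKO_Veh libraries, and 4 of the 11 were called without WT_Veh replicate 2. Those with KLA and RANKL also cross date stamps, those with KLA cross sex, and those with RANKL cross culture time and levels of neutrophil markers.

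The response to KLA differed between libraries labelled Pgc1b_flox_Cre and Pgc1b_flox for Nlrp1b (1.47), Casp1 (-1.09), Gsdmd (-0.89), Il18 (-1.62) and Il18bp (-3.07).

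Pycard moved in opposite directions with KLA between control sets, with log2 fold changes of 1.22 in WT, 0.94 in the RGFP966 table, 0.89 in the TBK1i table and -0.25 in Pgc1b_flox. The last was not called, and the difference between sets was not tested.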

How the results depend on the processing

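Counts of calls were within 1.5 times the reported count under DESeq2 size factors, DESeq2, no filter on low counts and a mean of at least 5 CPM. No called result changed sign under any alternative run, while results that were not called changed sign in 61 of 3700 gene results, none of them called under the alternative. Of the 3700, the 317 with no fold threshold reuse the main log2 fold changes and could not change sign. The change of direction of Mefv in NKO_KLA between KLA controls lies between comparisons and is not counted here. With no fold threshold, calls went from 17 to 34 of 60 for NKO against WT, from 24 to 38 of 50 for WT ligands, from 11 to 21 of 50 for the interactions, from 1 to 5 with RGFP966 and from 14 to 25 of 27 against the other KLA controls. The share of all genes called without a fold threshold was not computed, so these counts cannot be set against it. With only the compared groups in the fit, the interactions gave 6 calls. Of alternatives chosen after seeing the data, counting only comparisons within 1 date stamp left 12 calls for WT ligands, 16 for NKO ligands and 3 interactions, by fewer comparisons counted, and leaving out RANKL left 6 interactions.

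With each library left out in turn, calls ranged from 16 to 18 for NKO against WT, 24 to 26 for WT ligands, 29 to 31 for NKO ligands, 4 to 17 for the interactions (lowest without WT_Veh replicate 2, highest without WT_Veh replicate 1), 28 to 29 for KLA in the other control sets, 7 to 8 for TBK1i, 6 to 7 for the label Pgc1b_flox_Cre, 5 to 7 for its interaction and 14 to 16 against the other KLA controls, and stayed at 1 for RGFP966. Over 1508 such gene results 1428 kept their side of the threshold, 39 lost a call and 41 gained one. The cause was not tested.

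With the replicate number as a replicate block, calls were 17 for NKO against WT, 24 for WT ligands, 29 for NKO ligands, 12 for the interactions, 28 for KLA in the other control sets, 1 for RGFP966, 8 for TBK1i, 7 for Pgc1b_flox_Cre, 5 for its interaction and 14 against the other KLA controls, and 1 gene result changed side (Casp4 with IFNb, interaction 0.79, adjusted p = 0.0188). Depth limits Mefv most, with 7 to 46 counts a library at Veh, IFNb and IL4 in the NCoR table.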
